A study of Mus musculus with 30 samples.

Results

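The wild-type newborn mouse kidney was described here by setting its 3 arrays against the 12 wild-type arrays of brain, stomach, liver and salivary tissue, first as the mean of the 4 tissue means and then tissue by tissue. These 15 arrays were chosen by their titles, which name the tissue and the genotype, out of 30 arrays in all. The series asked what the loss of the nuclear receptor ERRγ does in 5 newborn tissues, with 3 arrays per tissue and genotype. The groups used were wild-type neonatal kidney, wild-type neonatal brain, stomach, liver and salivary tissue, and, for a repeat only, the same 5 tissues of ERRγ null neonates. Null and wild-type mice alike had a mixed background (SV129 and C57BL/6), their sex is given as unknown, and they had chow and water freely. Trizol-extracted total RNA was labelled with biotin and hybridised to an Affymetrix MOE430A array. Whether the 3 arrays of a tissue stand for 3 animals or for pools is not stated, so every p-value below reflects the scatter among arrays, some of which may be technical.

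The kidney filters blood in the glomerulus, where podocytes form the outer face of the filter, and then recovers most of the filtrate in the nephron tubule. The proximal tubule takes back sugars, amino acids, phosphate and filtered proteins through a brush border, the thick ascending limb and distal tubule adjust salt, and the collecting duct adjusts water and acid. In the mouse, nephrons are still being made at birth: progenitor cells at the kidney surface turn into new nephrons under signals from the branching ureteric bud, so that a newborn kidney holds maturing tubules beside embryonic cell types.

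All values are log2 MAS5 signals. A probe set was called different when limma's Benjamini-Hochberg adjusted p was below 0.05 over all 22626 probe sets, the difference was at least 1 on the log2 scale (2-fold) and the higher of the compared means reached 5.36, the 40th percentile of the values of the wild-type arrays. That value is termed the level. Signals below it are weak, so where every other tissue averaged below it a fold is given as at least the kidney mean over the level. Whole tissues were measured, so fewer cells of a type and less RNA per cell cannot be told apart.

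Both kidney markers, Umod and Miox, were higher in kidney than in each other tissue. Umod encodes uromodulin, the protein that thick ascending limb cells shed into urine. At its brighter probe set it read 11.06, 10.69 and 10.49 in the kidney arrays and 1.63 to 4.26, with a median of 3.05, in the 12 other arrays. Its difference was 7.62 ± 0.38 (SE; limma adjusted p = 1.42e-09), at least 41.8-fold over each other tissue, and the dimmer probe set gave at least 14.8-fold. Miox encodes the proximal tubule enzyme that oxidises myo-inositol. It read 9.13, 9.20 and 9.38 in kidney and 3.01 to 7.73 in the other arrays, where the liver arrays were the highest with a mean of 7.64. The kidney arrays lay above all 12 others for both genes, by 3.02-fold over liver for Miox.

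Every array had a 2% trimmed mean of 150 on the linear scale. The 3' minus 5' gap of the Gapdh control probe sets, a sign of RNA length, was 2.42 to 3.01 in kidney and 2.28 to 3.38 in brain, stomach and salivary arrays, but 4.25 to 4.81 in liver, so the kidney-liver differences stand beside that gap and its part in them was not tested. Stomach array 3 and, less, stomach array 2 held liver transcripts: the hepatocyte list summed to 2830, 6263 and 19844 (linear signal) in stomach arrays 1, 2 and 3. Salivary array 3 held fat transcripts, with 1896, 2133 and 12335 for the fat list in salivary arrays 1, 2 and 3. Without array 3 of both tissues, a check added after the values were seen, 268 in place of 277 probe sets were higher in kidney than in each tissue, 263 of them shared. Without stomach array 2 as well, 243 were higher, 238 of them shared, with the lone stomach array assumed to vary like the other groups. Xist was low in array 3 of every wild-type tissue, kidney included (11.08, 11.38 and 6.65).

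Relative to the mean of the 4 tissues, 1116 probe sets were higher in kidney (4.93% of those tested) and 606 were lower (2.68%). Against brain, 2343 were higher (10.4%) and 1977 lower (8.74%), and against liver 2519 were higher (11.1%) and 1626 lower (7.19%). The counts were smaller against stomach and salivary tissue, with 807 higher (3.57%) and 1089 lower (4.81%) against stomach, and 1314 higher (5.81%) and 993 lower (4.39%) against salivary tissue. The median difference over all probe sets was 0.01 against the mean of the 4 tissues and between -0.06 and 0.11 against the single tissues. Only 277 probe sets, for 224 named genes, were higher in kidney than in each of the 4 tissues (1.22%), and 20, for 17 named genes, were lower than in each (0.0884%). Counts of list members given below are to be read beside these shares of all probe sets. The median SD over the kidney arrays was 0.14 among the 257 of the 277 with a single gene name, and also 0.14 over all 13584 probe sets with a kidney mean at or above the level.

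**Figure D1:**
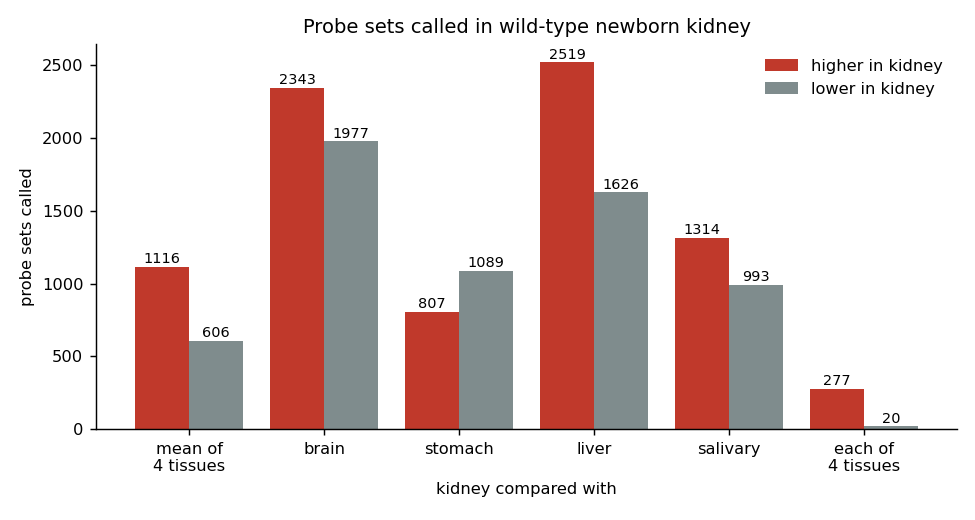
Number of probe sets called higher (red) or lower (grey) in wild-type newborn kidney (vertical axis) for each comparison (horizontal axis). The comparisons with brain and liver gave the tallest bars, and the requirement of all 4 tissues left 277 higher and 20 lower.

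The 20 genes described next had the largest log2 difference over their nearest tissue. That order rests in part on signals below the level in the other tissues. These genes were taken only from probe sets whose kidney arrays lay above all 12 others, as was so for 275 of the 277. Judged by their bounds over the level or their fold over the brightest tissue, they ran from 1.58-fold for Slc22a22 to 44.5-fold for Cdh16. Kap encodes a kidney androgen-regulated protein of the mouse proximal tubule. Its probe set with the wider difference read 10.82, 10.49 and 10.27 in kidney and at most 2.02 elsewhere, a difference of 9.76 ± 0.36 and at least 35.9-fold (limma adjusted p = 6.21e-11). Its other probe set averaged 10.77 in kidney and 8.29 in salivary tissue, 5.58-fold. The metalloprotease subunit gene Mep1b, whose product sits on the brush border, read 9.65, 9.70 and 9.73 in kidney and 0.88 to 1.79 elsewhere. Its kidney mean was at least 20.2-fold over the other tissues. Cdh16, the kidney-specific cadherin of tubule epithelium, read 11.28, 11.14 and 11.19 in kidney and was 44.5-fold over liver, the brightest other tissue. Genes of several tubule segments were among the 20: the proximal tubule (Slc22a19, Lrp2, Cubn, Cltrn, Slc34a1, Acsm2), the thick ascending limb (Umod, Kcnj1, Slc12a1), the distal tubule (Slc12a3, Kl) and the patterning genes Hoxa9 and Hoxd10. Hdc, Serpina6, Slc22a22 and ccdc198 completed them. Slc22a22 was the dimmest, at 5.82, 6.50 and 5.74 in kidney against at most 1.22 elsewhere.

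**Figure D2:**
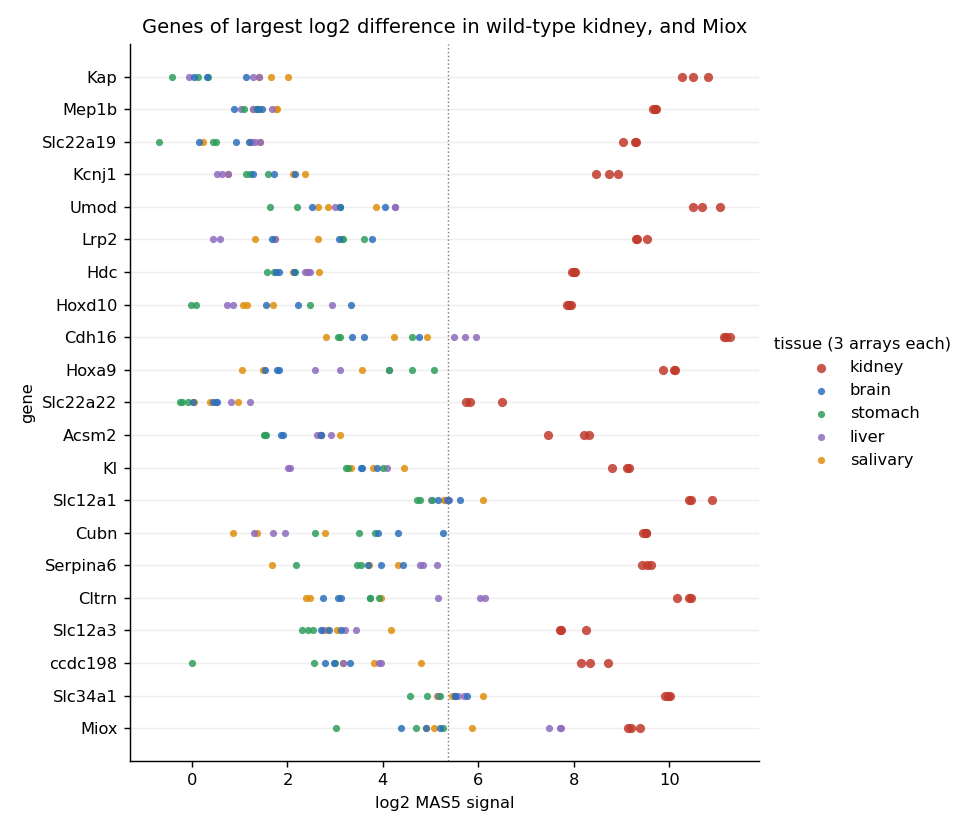
Log2 MAS5 signal (horizontal axis) of each wild-type array for the 20 genes of largest log2 difference and Miox (vertical axis), with 3 points per tissue and the level of 5.36 as a dotted line. The kidney points lie right of all 12 others in every row, which the choice of the 20 genes required. Most points of the other tissues lie left of the dotted line.

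Sequence around the transcription start could be read for 172 of the 224 genes from the RefSeq table on GRCm38.p6, in windows of 250 bases before to 50 after the start, and both strands were searched. The letters GTTAATNAT, a core of the HNF1 site, were found for 4 of the 172 genes (2.33%), against 0.708% of the 9887 array genes with a window. Some genes have more than 1 window, and a gene counts once. The letters CAAAGTCCA, an HNF4 half-site, were also found for 4 (2.33%), against 0.708%. HNF1 and HNF4 factors are known regulators of the proximal tubule. TCAAGGTCA, the site bound by ERR receptors, was found for 0 of the 172 genes and for 0.344% of the array genes. TATAAA was found for 35 genes (20.3%), against 11.9%. A match is a description of these letters only. All 4 windows with the HNF1 letters are shown, and 1 with the HNF4 letters and 3 with TATAAA are shown for genes described by their values here. Sult1d1, a sulfotransferase gene that no other rule named, is shown for its letters and read 7.55, 7.49 and 7.08 in kidney, against at most 6.94 elsewhere. Each stretch runs 5′ to 3′ on the gene's strand from 40 bases before the match, with the matched letters in capitals.
Cltrn, chrX:164090093-164090166, plus strand, HNF1: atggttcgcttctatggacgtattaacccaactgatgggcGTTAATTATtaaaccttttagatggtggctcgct
Pkhd1, chr1:20618103-20618176, minus strand, HNF1: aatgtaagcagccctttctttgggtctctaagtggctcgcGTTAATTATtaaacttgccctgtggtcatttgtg
Sult1d1, chr5:87569052-87569125, minus strand, HNF1: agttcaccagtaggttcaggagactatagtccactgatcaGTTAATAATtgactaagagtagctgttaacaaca
Slc22a29, chr19:8218901-8218972, minus strand, HNF1 on the opposite strand: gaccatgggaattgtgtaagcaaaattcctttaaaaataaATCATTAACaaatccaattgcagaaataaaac
Slc3a1, chr17:85028268-85028341, plus strand, HNF4: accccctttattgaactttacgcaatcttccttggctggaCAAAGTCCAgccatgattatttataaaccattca
Kap, chr6:133853668-133853738, minus strand, TATAAA: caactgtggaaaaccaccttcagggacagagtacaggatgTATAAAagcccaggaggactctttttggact
Miox, chr15:89334393-89334463, plus strand, TATAAA: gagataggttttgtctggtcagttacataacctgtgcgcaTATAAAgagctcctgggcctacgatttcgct
Slc12a3, chr8:94329136-94329206, plus strand, TATAAA: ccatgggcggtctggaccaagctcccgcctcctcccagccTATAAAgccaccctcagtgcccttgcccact
The first matched base lay 54, 79, 79 and 32 bases before the start in Cltrn, Pkhd1, Sult1d1 and Slc22a29, 39 bases before it in Slc3a1, and 31, 40 and 32 bases before it in Kap, Miox and Slc12a3. The Cltrn and Pkhd1 matches share the letters GTTAATTAT.

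The genes of proximal tubule uptake and brush border were the most uniformly high nephron group. Of 19 measured members, 16 were higher in kidney than the mean of the 4 tissues, 0 were lower and 12 were higher than each tissue, and the list's median difference was 3.68, against 0.01 over all probe sets. Cubn and Lrp2 encode cubilin and megalin, the receptors that take filtered proteins back. Cubn read 9.52, 9.52 and 9.45 in kidney and 0.86 to 5.25 elsewhere, a difference of 6.72 ± 0.38. The 2 probe sets of Lrp2 both passed, at 9.31, 9.53 and 9.32 for one and 8.36, 8.41 and 8.26 for the other, against at most 3.77 and 4.88 in the other arrays. Cltrn encodes collectrin, which brings amino acid transporters to the apical membrane, and read 10.41, 10.46 and 10.17 in kidney, against at most 6.13 elsewhere. The scaffold gene Pdzk1 was also present in liver, with a mean of 10.20 ± 0.09 in kidney and 8.52 in liver (SD, n = 3). The peptidase genes Mep1a (10.16 ± 0.14), Enpep (10.25 ± 0.03) and Anpep (7.41 ± 0.43) were each higher than every tissue, with differences of 3.95 ± 0.10, 3.68 ± 0.11 and 4.37 ± 0.29 over the 4-tissue mean. Vil1, which encodes the microvillus protein villin, was not above stomach by the rule, at 7.64 ± 0.14 in kidney and 7.23 in stomach. Ace, Clcn5 and Treh did not pass, and Treh was at 2.20 in kidney, below the level. A second, dimmer probe set of Ace was higher than each tissue (5.27, 6.36 and 6.32, against at most 4.02).

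Of the 32 measured proximal tubule transporters, 25 were higher than the mean of the 4 tissues, 0 were lower and 11 were higher than each, with a median difference of 1.88. Slc34a1, the sodium-phosphate cotransporter of the brush border, read 10.02, 9.98 and 9.91 in kidney and 4.57 to 6.09 elsewhere, 20.7-fold over the brightest tissue. Slc17a1, an anion and phosphate transporter, read 10.28, 10.06 and 9.95 in kidney, against at most 5.88. Slc3a1 and Slc7a9 form the cystine and dibasic amino acid carrier. Slc3a1 averaged 9.09 ± 0.19 in kidney and 6.91 in liver, its next tissue, and Slc7a9 averaged 8.61 ± 0.08 in kidney and 5.33 in salivary tissue. Slc47a1, which exports organic cations, averaged 9.51 ± 0.12 in kidney and 9.53 in liver, and was higher in kidney than in brain, stomach and salivary tissue. Against liver alone, 16 of the 32 transporters were higher and 5 were lower in kidney. The basolateral bicarbonate carrier gene Slc4a4 (difference 0.96 ± 0.15) and the amino acid carrier gene Slc7a8 (0.96 ± 0.17) missed the 2-fold size. Slc4a4 passed without kidney array 3 (1.05) or salivary array 3 (1.03), and Slc7a8 without kidney array 2 or 3 (1.01 each) or without brain array 3. Another probe set of Slc4a4 was higher than each tissue (9.30, 9.10 and 8.98, against at most 8.40).

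The organic ion carriers of the SLC22 family, a list drawn up after the values were seen, gave these counts: 11 of 18 measured members were higher, 0 were lower and 8 were higher than each tissue. Slc22a6 (OAT1), the main basolateral uptake carrier of organic anions, read 8.36, 8.38 and 8.18 in kidney and 1.40 to 5.68 elsewhere. Slc22a2, the matching organic cation carrier, read 8.98, 8.70 and 8.43, against at most 5.14. Slc22a19 read 9.03, 9.30 and 9.29, against at most 1.43, at least 14.4-fold. Slc22a13, Slc22a29 and Slc22a30 were higher than each tissue too, at 8.04, 8.26 and 6.43 on average. Slc22a17 and Slc22a23 showed no kidney excess, with differences of -0.36 and -0.51, and both were lower in kidney than in brain.

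Proximal tubule metabolism was more divided. Of 30 measured genes, 15 were higher than the mean of the 4 tissues, 4 were lower and 7 were higher than each. Against liver alone 13 were lower and 7 higher, with a median difference of -1.02. Acsm2, a medium-chain acyl-CoA synthetase gene, read 10.55, 10.35 and 10.30 in kidney and at most 5.28 elsewhere, at least 32.9-fold. Dao, which encodes D-amino acid oxidase, read 7.33, 7.72 and 7.56 in kidney and at most 5.05 elsewhere. Hao2, a peroxisomal hydroxyacid oxidase gene, was shared with liver, at 10.04, 9.97 and 9.72 in kidney and a liver mean of 9.76. Its brain arrays lay between 0.32 and 0.61, so the kidney was at least 23.4-fold higher than brain. The tyrosine-degrading gene Hgd (8.12 ± 0.13 in kidney and 10.37 in liver) was lower in kidney than in liver and higher than in the other 3 tissues.

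Kidney and liver are the organs that make glucose. Of 8 gluconeogenic genes measured, 3 were higher and 1 was lower than the mean of the 4 tissues, and against liver 1 was higher and 2 were lower. Fbp1, fructose bisphosphatase, read 11.47, 11.40 and 11.21 in kidney, with means of 12.56 in liver and 5.50 in brain, and 5.75, 7.27 and 9.90 in the stomach arrays. The stomach array with the highest Fbp1 is also the one with the highest hepatocyte list sum, whose part was not tested. Pck1, which encodes cytosolic PEP carboxykinase, read 7.76, 8.14 and 8.17 in kidney and -1.87 to -0.16 in brain, at least 6.33-fold, with a liver mean of 10.25. Its salivary arrays read 5.85, 6.17 and 9.23, the last being the array with fat transcripts and above all 3 kidney arrays, and its stomach arrays read 1.28, 1.86 and 6.43. Slc37a4, the glucose 6-phosphate carrier gene, averaged 9.08 ± 0.04 in kidney and 10.34 in liver, and its call against the 4-tissue mean (difference 1.03 ± 0.13) was lost without liver array 3. Tat, a liver aminotransferase gene, was lower in kidney (4.25 ± 0.44) than in liver (9.17), and its call against the 4-tissue mean was lost without kidney array 2 (-1.61) or 3 (-1.43).

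Of 27 fatty acid oxidation genes, 20 were higher in kidney than in brain and 14 were lower than in liver. Over all probe sets these shares were 10.4% and 7.19%. Against the 4-tissue mean 3 of the 27 were higher and 0 lower, beside 4.93% and 2.68% of all probe sets. Against stomach 2 were higher and 0 lower, beside 3.57% and 4.81% of all probe sets. Against salivary tissue 4 were higher and 0 lower, beside 5.81% and 4.39%. The 3 higher than the mean were Fabp3 (difference 2.36 ± 0.37), Acaa1b (2.22 ± 0.20) and Slc22a5, the carnitine transporter gene (1.47 ± 0.18). By the rule 0 of the 27 were higher than each tissue. Fabp3 read 9.03, 8.52 and 8.33 in kidney and 8.18, 8.33 and 8.28 in brain. Acaa1b read 9.97, 10.05 and 9.96 in kidney and 12.34, 12.44 and 12.07 in liver. Slc22a5 read 8.52, 8.42 and 8.69 in kidney, against at most 7.79 elsewhere. Among 27 peroxisome genes, Hao2 and Dao were higher and Ephx2 was lower (-1.07 ± 0.21), shares near the 4.93% and 2.68% of all probe sets. Ephx2 had no call when kidney array 3 (-0.97) or salivary array 3 (-0.96) was left out. Of 23 tricarboxylic acid cycle genes, Idh2 (10.14, 9.96 and 10.13 in kidney, difference 1.29 ± 0.08) and Suclg2 (1.09 ± 0.14) were higher, 2 of 23 against 4.93% of all probe sets. Of 68 oxidative phosphorylation genes 0 were called against the 4-tissue mean by limma, and their median difference was 0.17.

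Glutathione genes gave 7 higher and 1 lower of 22, with 3 higher than each tissue. Gpx3, the secreted glutathione peroxidase that the kidney supplies to plasma, read 11.06, 10.50 and 10.72 in kidney and 3.64 to 8.23 elsewhere, a difference of 4.73 ± 0.47. Gsta2 read 9.98, 9.91 and 9.85, against at most 7.58, and Gpx6 read 8.07, 8.02 and 7.89, against at most 5.39. Mgst2 went the other way, at 3.01, 2.74 and 2.88 in kidney and a mean of 9.90 in stomach.

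In the thick ascending limb group, 6 of 14 measured genes were higher than the 4-tissue mean, 0 were lower and 3 were higher than each tissue, with a median difference of 1.32. Against salivary tissue alone 4 were higher and 3 were lower, with a median difference of 0.25. Slc12a1 encodes the furosemide-sensitive NKCC2 cotransporter. It read 10.46, 10.90 and 10.41 in kidney and 4.71 to 6.09 elsewhere, 32.7-fold over the brightest tissue, and a second probe set of the gene was not called. Kcnj1, the ROMK potassium channel gene, read 8.74, 8.92 and 8.46, against at most 2.37. Cldn16, which lets magnesium and calcium pass between cells, read 6.42, 7.14 and 6.66, against at most 3.39. Bsnd, the barttin subunit of chloride channels, was close to the level at 6.08, 5.91 and 5.89 and did not differ from salivary tissue, which averaged 5.65. Casr, Irx1 and Ptger3 were not called.

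The distal convoluted and connecting tubule gave 8 higher of 12, 0 lower and 6 higher than each, with a median of 2.58. Slc12a3 encodes the thiazide-sensitive cotransporter NCC and read 8.25, 7.74 and 7.71 in kidney and 2.31 to 4.17 elsewhere. Calb1, the calcium-buffering calbindin, read 10.92, 10.47 and 10.70, and its only other bright tissue was brain, with a mean of 8.79. S100g, the smaller calbindin, read 8.36, 7.87 and 7.83, against at most 4.89. Fxyd2, the sodium pump gamma subunit, read 10.67, 10.41 and 10.28, and salivary tissue came next with a mean of 7.74. Klk1, a kallikrein gene measured by a probe set that may match related kallikreins, read 7.95, 7.16 and 7.32 in kidney, above brain, stomach and liver and below salivary tissue, which averaged 10.06.

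Among principal cell genes of the collecting duct, 10 of 14 were higher, 0 were lower and 7 were higher than each tissue, with a median of 2.19. Aqp2, the vasopressin-regulated water channel, read 8.76, 8.39 and 8.62 in kidney and 4.01 to 6.34 elsewhere, 5.43-fold over liver. A pair of sodium channel subunit genes, Scnn1g (7.87, 7.85 and 7.61, against at most 6.00) and Scnn1b (7.88, 7.81 and 7.61, against at most 6.08), were higher than each tissue. The third, Scnn1a, was not called and averaged 7.55 ± 0.28 in kidney and 7.75 in stomach. Hsd11b2, which protects the mineralocorticoid receptor from glucocorticoids, read 8.20, 8.02 and 8.08, against at most 6.16. Fxyd4 read 8.56, 8.53 and 8.42, against at most 6.34. Gata3, a transcription factor of the duct lineage, read 6.42, 6.58 and 7.04, against at most 4.78.

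Among intercalated cell genes, 7 had a kidney mean at or above the level. Of 11 measured, 4 were higher, 0 were lower and 2 were higher than each. Rhcg, an ammonia channel, read 7.11, 6.76 and 7.02 in kidney and 1.92 to 3.75 elsewhere. Atp6v1b1, the renal subunit of the proton pump, was barely above the level on average, at 5.65, 5.08 and 5.93, and at least 1.14-fold over the other tissues. Foxi1, the intercalated cell transcription factor, read 6.12, 6.35 and 6.22, and was not above salivary tissue by the rule. Slc26a4, the pendrin gene, read 6.77, 6.45 and 6.29 in kidney and at most 6.04 elsewhere, and its difference fell just short of the 2-fold size. It passed, at 1.02 to 1.10, without any 1 of kidney arrays 2 and 3, brain arrays 2 and 3, stomach array 3 and liver arrays 1 and 2.

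In the glomerulus, 9 of 20 podocyte genes were higher, 0 were lower and 5 were higher than each, with a median of 1.06. Podxl, the sialoprotein podocalyxin that keeps foot processes apart, read 9.82, 9.84 and 9.82 in kidney and 6.45 to 7.59 elsewhere. Wt1 read 7.89, 8.29 and 8.15, against at most 5.17, and Foxc2 read 7.89, 8.03 and 8.27, against at most 6.05. Nphs1, the slit diaphragm protein nephrin, was dimmer, at 6.46, 6.19 and 6.33, against at most 5.67. Endothelial genes moved with this group: 5 of 15 endothelial markers were higher than the 4-tissue mean, 0 were lower, and their summed linear signal was 3404 to 3773 in kidney and 1453 to 2670 in the other tissues. Plvap (8.85 ± 0.19, against at most 7.47) and Emcn (7.53, 7.21 and 7.42, against at most 6.50) were higher than each tissue. Their part in the podocyte counts was not tested.

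Of 19 nephron progenitor genes, 10 were higher than the 4-tissue mean, 0 were lower and 5 were higher than each, with a median of 1.88. Gdnf, the signal by which the progenitors draw the ureteric bud, read 6.96, 7.04 and 6.86 in kidney and 1.69 to 3.42 elsewhere. Uncx, a homeobox gene of the forming nephron, read 6.09, 6.09 and 6.31, against at most 2.80. Pax8, which specifies the nephric lineage, read 8.10, 8.29 and 8.32, against at most 6.76, and Itga8, the integrin needed for bud invasion, read 6.18, 6.22 and 6.34, against at most 4.73. Lhx1 read 7.06, 7.18 and 7.46 and was not above brain by the rule at this probe set (mean 6.26), while its other probe set was (7.05, 7.41 and 7.16, against at most 5.52). Six2, the best known progenitor factor, read 7.83, 7.57 and 7.71 in kidney, but its salivary mean was 7.86 and its stomach mean 7.55, and it was not called.

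The ureteric bud list gave 6 higher of 14, 0 lower and 4 higher than each, with Cdh16, Calb1, Gata3 and the bud tip signal Wnt11 (6.94, 7.37 and 7.37, against at most 6.43) as those 4. Ret, the receptor for Gdnf, was not called, with 5.72, 6.01 and 6.05 in kidney and 5.22 to 6.47 elsewhere. Stromal genes were mixed: 5 of 13 were higher and 2 were lower. Tcf21, made by stroma and podocytes, read 10.07, 10.07 and 10.14, against at most 8.47, and Pdgfrb averaged 8.38 ± 0.25 in kidney and 7.26 in salivary tissue. Foxd1, the stromal progenitor factor, read 6.25, 6.11 and 6.24 and was not above brain by the rule (5.29). Fst and Lum were lower in kidney, by differences of -1.60 and -1.16. In the extracellular matrix list 9 of 29 were higher than the 4-tissue mean and 1 was lower, and 1 was higher than each tissue. That one was Lama1, the embryonic laminin chain, at 7.38, 7.69 and 7.62, against at most 4.96. Of the list, 25 were higher and 0 lower than in brain, and 17 and 1 against liver. Against stomach 4 were higher and 8 lower, and against salivary tissue 3 and 5. The list summed to 24447 to 25870 (linear signal) in kidney, 34568 to 37779 in stomach and 32720 to 34736 in salivary tissue. It summed to 5982 to 6364 in brain and 12704 to 13351 in liver. Mgp, the matrix Gla protein gene (difference 3.55 ± 0.21), was higher than in brain, liver and salivary tissue, and Vcan, the versican gene (1.47 ± 0.09), than in stomach and liver. Col4a1 (difference 1.37 ± 0.06) and Col4a2 (1.62 ± 0.07) were higher than in brain and liver only. Of 35 cell cycle genes, 26 were higher in kidney than in brain, where 10.4% of all probe sets were. Bub1b and Ccnd1 were higher than the 4-tissue mean, 2 of 35 against 4.93% of all probe sets.

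HOX genes, which record position along the body axis, gave 17 higher of 31 measured, 0 lower and 8 higher than each tissue, with a median of 1.60. The calls followed the paralogue number. All 8 measured genes of groups 9 to 11 were higher than the 4-tissue mean, with a median of 3.36 and 6 higher than each tissue. None of the 5 of groups 12 and 13 was called, with a median of -0.31, and their kidney means ran from -0.55 for Hoxb13 to 4.68 for Hoxa13, all below the level. In groups 5 to 8, 5 of 9 were higher (median 2.23), and in groups 1 to 4, 4 of 9 (median 0.95). Hoxd10 read 7.85, 7.94 and 7.91 in kidney and -0.03 to 3.34 elsewhere. Hoxa10 read 7.99, 8.34 and 8.22, against at most 4.71, and Hoxa11 averaged 7.24 ± 0.22, against at most 5.81.

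The stomach shared the middle of the HOX range with the kidney. Hoxc8 averaged 7.91 ± 0.26 in kidney and 7.36 in stomach, Hoxb5 averaged 7.25 ± 0.14 in kidney and 6.95 in stomach, and Hoxc4 was lower in kidney (5.71 ± 0.30) than in stomach (6.79). Against stomach, 8 of 8 genes of groups 9 to 11 were higher in kidney, but only 1 of 9 in groups 5 to 8 and 1 of 9 in groups 1 to 4. Hoxd11 was near the level (5.38, 5.89 and 4.98), and its call was lost without kidney array 2, where the difference was 2.01. The brightest probe set of Hoxa9 in kidney (9.87, 10.13 and 10.11) was above every tissue, whereas the one brighter on average over all tissues (7.49, 7.54 and 7.81) was not above liver (7.77).

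**Figure D3:**
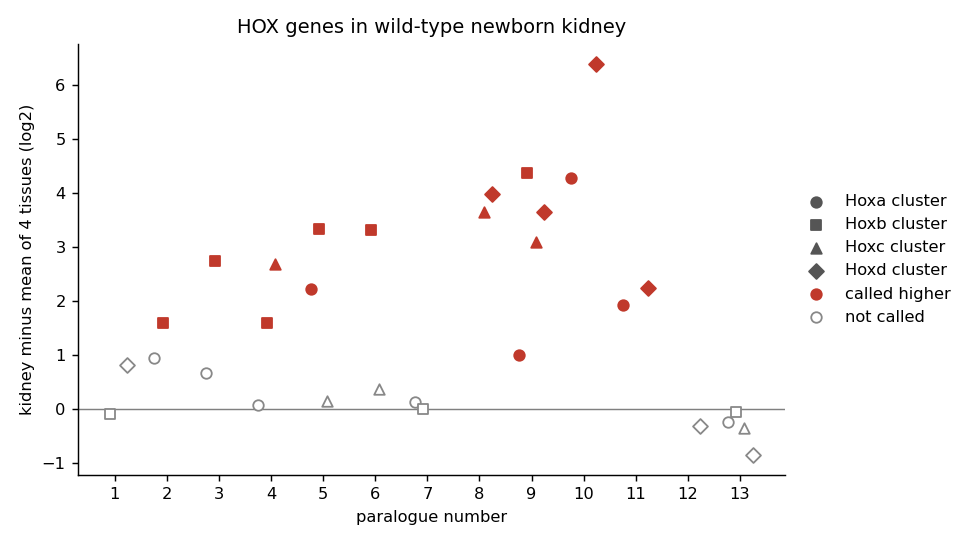
Kidney minus the mean of the 4 tissues (log2, vertical axis) for each of 31 HOX genes by paralogue number (horizontal axis), with the marker shape for the cluster and filled red markers for genes called higher. All 8 genes of numbers 9 to 11 are filled, and all 5 of numbers 12 and 13 are open and lie near or below 0. Hoxa9 is drawn at its probe set that is brighter on average over all tissues.

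Other transcription factors of the renal list gave 12 higher of 23, 0 lower and 6 higher than each. Glis2, a zinc finger gene linked to cystic disease, read 9.08, 9.11 and 9.14 in kidney and 6.31 to 7.64 elsewhere. Tbx2 read 6.27, 6.52 and 6.06, against at most 5.48. Tfcp2l1, a collecting duct factor, read 9.51, 9.51 and 9.33, above brain, stomach and liver, while its salivary mean was 10.81. Esrrg, the gene of ERRγ itself, was not called and was near the level in all 5 tissues, with 6.08, 6.00 and 5.98 in kidney and 5.89 to 6.64 elsewhere. Where this probe set lies relative to the deleted part was not given. Among cystic kidney and cilia genes, 4 of 10 were higher than each tissue: Pkhd1, Bicc1, Cys1 and Glis2. Pkhd1, which encodes fibrocystin, read 8.44, 8.71 and 8.47, and liver, whose bile ducts also use it, came next with a mean of 5.69. Pkd1, Ift88 and Ahi1 were not called.

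The vitamin D and phosphate group had the highest share of calls of the kidney lists, with 12 of 13 higher than the 4-tissue mean, 0 lower, 10 higher than each and a median of 4.53. Cyp27b1, which makes active vitamin D, read 8.99, 8.15 and 7.55 in kidney and 3.02 to 4.79 elsewhere. Its kidney SD of 0.72 was wide, but the groups did not overlap. Kl, the klotho co-receptor for FGF23, read 9.11, 9.15 and 8.81, against at most 4.45. Pth1r, the parathyroid hormone receptor, read 8.05, 7.97 and 7.83, against at most 4.58. Fgf23, a hormone of bone, was the member not called, at 4.56 in kidney, below the level. Cubn, Lrp2, Slc34a1, Calb1 and S100g belong to this list as well, so it is not separate from the groups above.

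Of 7 measured renin-angiotensin genes, 3 were higher and 1 was lower. Enpep, the angiotensin-cleaving aminopeptidase A, and Agtrap (6.53, 6.73 and 6.32, against at most 5.80) were higher than each tissue. Agtr2 averaged 6.92 ± 0.19 in kidney, above brain and liver and below salivary tissue (9.03). Agt, the angiotensinogen gene, read 3.98, 2.54 and 4.14 in kidney and averaged 10.75 in liver. Renin was not analysed here.

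Families of channels and junction proteins were picked out member by member. Of 17 claudins, 7 were higher and 2 were lower. Cldn2, the proximal paracellular cation pore (9.47, 9.52 and 9.43, against at most 8.07), Cldn6 (8.20, 8.27 and 8.31, against at most 5.86) and Cldn16 were higher than each tissue. Cldn8 (9.25 ± 0.27) was matched by salivary tissue (8.79), and Cldn10 (8.54 ± 0.04) was exceeded by it (9.87). Cldn18, a stomach and lung claudin, and Cldn13 were lower. Of 8 aquaporins, Aqp2, Aqp3 and Aqp1 were higher than the 4-tissue mean and Aqp9 was lower. Aqp1, the proximal water channel, read 9.09, 9.01 and 8.97 in kidney and averaged 9.16 in liver. Aqp3 (7.55 ± 0.20) lay below stomach (8.66).

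Of 16 carbonic anhydrases, Car15 (7.70, 7.75 and 7.54, against at most 5.46) and Car4, the membrane-bound form of the proximal tubule (8.45, 7.64 and 7.85, against at most 5.86), were higher than each tissue. Car12 was higher than the 4-tissue mean, Car6 and Car8 were lower, and Car2, the cytosolic form, was not called, since stomach (11.40) and liver (11.71) lay above kidney (9.99 ± 0.08). Of 10 sodium pump and FXYD genes, Fxyd2, Fxyd4, Fxyd6 and Atp1b1 were higher than the 4-tissue mean and Fxyd3 was lower. Fxyd6 read 6.97, 6.98 and 7.18 in kidney, below brain (9.17, 9.48 and 9.19) and beside stomach (6.53, 7.20 and 6.95). Its liver and salivary arrays, at most 4.08, were below the level. Atp1b1, the pump's main beta subunit, averaged 11.55 ± 0.05 in kidney and 11.33 in salivary tissue. Its arrays read 11.06 to 11.18 in brain, 10.61 to 10.96 in stomach and 8.85 to 8.92 in liver.

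**Figure D4:**
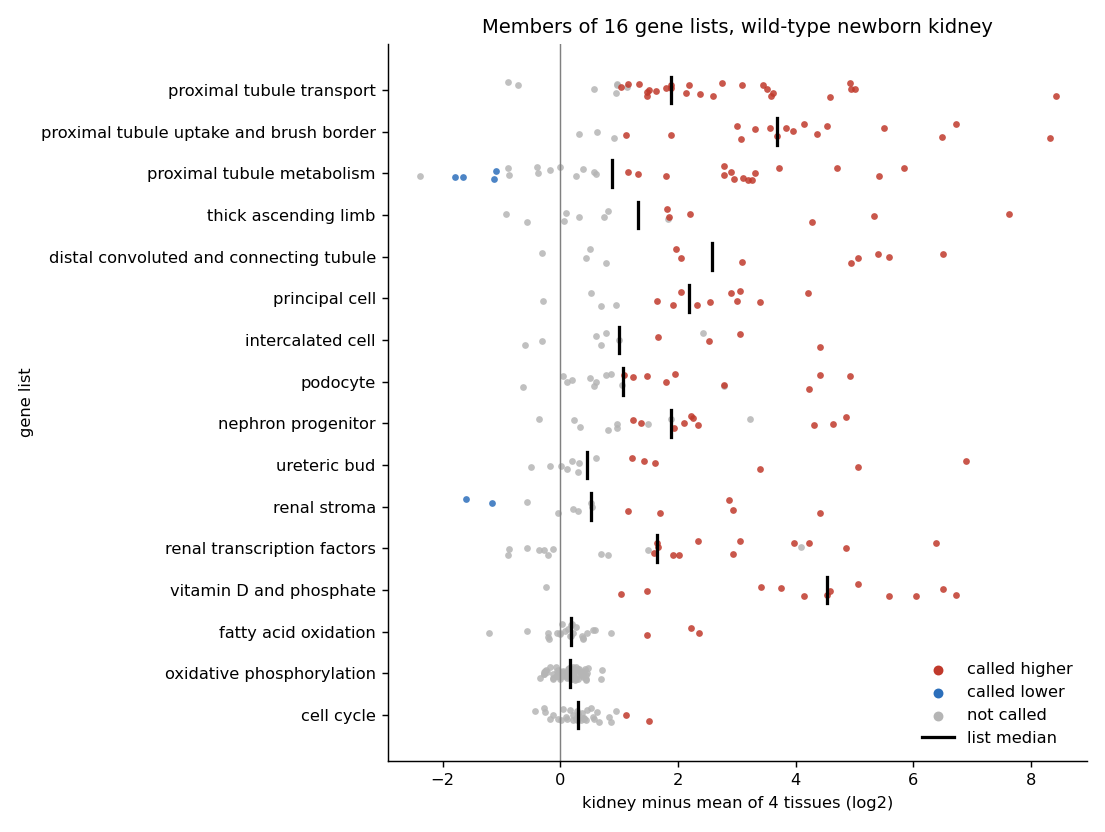
Kidney minus the mean of the 4 tissues (log2, horizontal axis) for each measured member of 16 gene lists (vertical axis), red where called higher, blue where called lower and grey where not called, with a black bar at the list median. The medians are 3.68 for proximal uptake and brush border, 4.53 for vitamin D and phosphate and 0.17 for oxidative phosphorylation.

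Few genes were lower in kidney than in every other tissue, and they belonged to no one pathway of the lists. Asns, which encodes asparagine synthetase, read 4.93, 5.88 and 5.53 in kidney and 8.05 to 9.59 elsewhere, a difference of -3.23 ± 0.17 (limma adjusted p = 2.02e-09). Its second probe set read 7.12, 7.21 and 7.21 in kidney and 8.70 to 10.09 elsewhere. Bcl11a, a zinc finger repressor of neurons and blood cells, read 3.89, 4.73 and 4.68, against 6.93 to 9.91. B4galnt1, a ganglioside-synthesis gene, read 2.07, 1.94 and 2.36, against 4.82 to 7.43. The RNA-binding protein gene Celf2 (6.06, 6.12 and 6.03, against 7.29 to 10.11), the signal peptidase gene Sec11c (6.95, 7.03 and 7.25, against 8.12 to 10.80) and the squalene synthase gene Fdft1 (6.42, 6.36 and 6.78, against 7.67 to 8.66) were above the level in kidney. That their kidney arrays lay below every other array was required by the choice of these lowest genes. Abca8a, Itih2, Palmd and Rd3 were also lower than in each tissue, with kidney means below the level.

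Against the single tissues, genes outside the 20 above were taken by log2 difference, so that their order depends on signals below the level. Over brain, they were Kng1 (9.27, 9.30 and 8.81 in kidney and -1.51 to -1.08 in brain, at least 13.6-fold), Hao2, Pck1 and Afp (7.79, 8.06 and 8.39 in kidney and -1.25 to -0.78 in brain, at least 6.59-fold). Kng1 and Afp are also liver transcripts, and the call of Kng1 against the 4-tissue mean was lost without any 1 kidney array. The hepatocyte list summed to 2485 to 2621 in kidney, 88663 to 97719 in liver and 4543 to 5305 in brain. Of its 16 measured members, 15 were lower in kidney than in liver and 0 were higher. Against brain 2 were higher and 1 was lower, with a list median difference of 1.52, and against salivary tissue 3 were higher and 0 lower. The sums follow the brightest genes: Ttr read 12.28, 12.06 and 12.08 in brain and 10.72, 10.29 and 10.58 in kidney. The brain and kidney sums therefore do not rank the list as a whole. The markers differed in kidney: Apoa1 read 1.01, 2.86 and 1.99 at its dimmer probe set, with 12.83 to 13.09 in liver. Afp read 9.03, 9.03 and 8.74 in kidney at its brighter probe set, with 12.93 to 13.03 in liver. Over stomach, they were Fxyd2, Cyp2j5 (9.14, 9.11 and 9.24 in kidney and 0.36 to 1.42 in stomach, below the level), Sucnr1 and Lhx1. Cyp2j5 encodes a renal and hepatic epoxygenase and Sucnr1 the succinate receptor. Over liver, they were Mal (9.62, 9.62 and 9.58 in kidney and 1.22 to 1.83 in liver, at least 19.0-fold), a gene of apical membrane traffic, Pth1r, Fxyd2 and the BMP antagonist gene Sostdc1 (10.23, 10.28 and 10.18 in kidney and 2.05 to 3.87 in liver, at least 29.2-fold). Over salivary tissue they were Kng1, Cyp2j5, Afp and S100g.

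Genes lower in kidney were taken the same way. They were the neuronal genes Mapk10, Snap25, Elavl2 and Tubb3 against brain, with Snap25 at -0.71, -1.76 and 1.33 in kidney and 9.89 to 10.26 in brain. Against stomach they were Bpifb1, Clps, Lor and Gkn1, against liver Fabp1, Apoa1, Fgb and Ces1c, and against salivary tissue Mucl2, Prol1, Dcpp1 and Prpmp5, with Mucl2 at 0.71, -0.54 and 0.69 in kidney and 12.35 to 12.62 in salivary tissue. In kidney the salivary marker list summed to 90 to 106 and the adrenal list to 391 to 448, both below the range of every other tissue. Of 18 leukocyte genes 16, and of 12 erythroid genes 9, were lower in kidney than in liver, which makes blood at birth. The fat list summed to 1374 to 1407 in kidney, above brain, stomach and liver (145 to 723), and its only call was Fabp4 (10.26, 10.23 and 10.21), which endothelium also makes. Its part in the kidney calls was not tested.

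The ERRγ null arrays, which the wild-type comparison did not use, gave the same contrasts in mice that differ in genotype. In them 261 probe sets were higher in kidney than in each tissue (1.15%) and 21 were lower (0.0928%). Of the higher ones 199 were called in both genotypes, which is 71.8% of the wild-type list and 76.2% of the null list, and all 277 of the wild-type list had the same sign in the null arrays. Of the 20 lower ones, 9 were called in both (45.0% and 42.9%). Umod read 9.58, 9.53 and 10.06 in null kidney, against 11.06, 10.69 and 10.49 in wild-type kidney, and was called in both. Miox read 7.40, 8.09 and 7.09 in null kidney, against 9.13, 9.20 and 9.38 in wild-type kidney, and was no longer higher than each tissue in null arrays. The kidney arrays of the genotypes did not overlap for Miox, but the difference in its kidney excess (-1.28 ± 0.54) did not pass, with a limma adjusted p of 0.697.

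**Figure D5:**
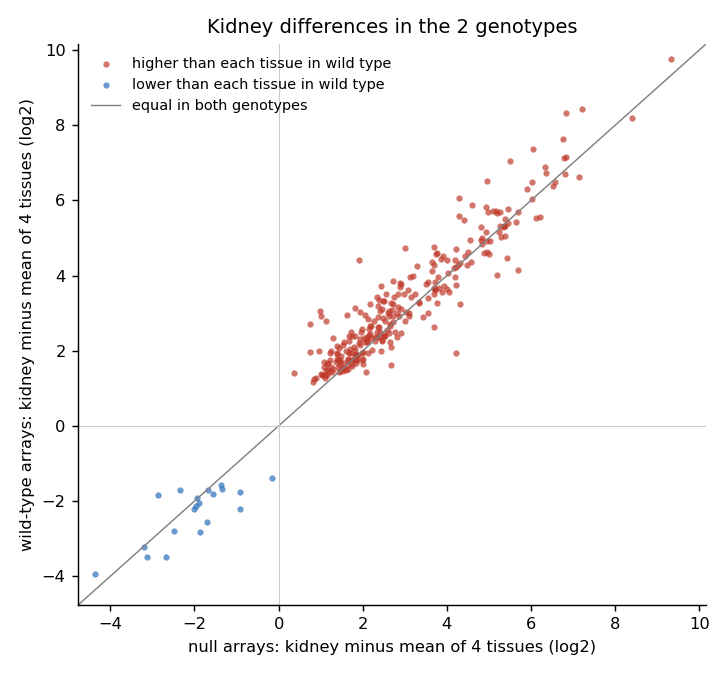
Kidney minus the mean of the 4 tissues (log2) in null arrays (horizontal axis) and in wild-type arrays (vertical axis) for the 277 probe sets higher (red) and the 20 lower (blue) than each tissue in wild type, with a line of equality. All 277 red points lie above 0 on both axes, which the choice of the list fixed for the vertical axis.

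The kidney excess over the 4-tissue mean differed between the genotypes for 17 probe sets (0.0751%) in 1 fit of all 30 arrays. The largest of those with a single gene name was Klk1, at 4.38, 2.07 and 0.71 in null kidney, against 7.95, 7.16 and 7.32 in wild-type kidney. The difference between genotypes was -4.90 ± 0.80 (limma adjusted p = 0.0112), and the null kidney arrays lay below all 3 wild-type ones. Sprr2f, a cornified envelope gene, went the other way, at 9.11, 8.80 and 7.51 in null kidney, against 6.27, 6.52 and 5.71 in wild-type kidney.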

How the data were processed

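Total RNA of 30 newborn tissue samples was measured on MOE430A arrays. The deposited matrix holds log2 values made by the authors with MAS5, per the submitters' processing notes, which give no version. The values were used as deposited, with 64 control probe sets left out and no filter on low values, for 22626 probe sets. Of all probe sets 20380 carried 1 gene symbol in the platform annotation, 691 carried several and 1555 none, and only those with 1 symbol are named. Detection calls were not used here. The number of arrays limits the precision.

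The 5 wild-type groups of 3 arrays were fitted together with limma 3.58.1 in R 4.3.3 (lmFit, eBayes with a mean-variance trend), and p-values were adjusted over all probe sets by Benjamini-Hochberg. Errors of differences are standard errors and errors of levels are SDs over 3 arrays. The fit was tested on simulated data of 22626 probe sets, with changes put only into probe sets averaging at or above the level. There 100 changes of each size were made, and the tissues were otherwise given the same mean. For kidney minus the mean of 4 tissues, 88% of 2-fold and 97% of 4-fold changes were recovered, with 5 false calls. Recovery there meant an adjusted p below 0.05 in the right direction, without the 2-fold size and the level. It therefore does not show how many changes the full call rule would find. Nor does it show recovery in the real contrast, where 4218 probe sets were higher and 3008 lower at that adjusted p. The null arrays were fitted the same way.

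The members, the gene lists and the tests were chosen with earlier results of these data known, and 4 lists (cholesterol synthesis, amino acid synthesis and deprivation, histamine, SLC22 carriers) were added after the values were seen. Each list gene is represented by whichever of its probe sets was brightest on average in wild type, and no set test was run. Of 772 list genes 676 were measured. Named genes were Umod and Miox, the 20 genes with the largest smallest difference above the 4 tissues, the 10 lowest by the same rule, the 4 largest in each direction per tissue, up to 8 called and 3 brightest uncalled members per list, and up to 5 genes of the largest difference between genotypes. Members of the HOX, claudin, aquaporin, carbonic anhydrase and sodium pump families, second probe sets, Sult1d1, and further members and genes that differed between genotypes were chosen after their values were seen. Alternatives were a filter and a floor at the level, other fold sizes, other normalization, each array or tissue left out, pooled tissues and a replicate block.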

Additional observations from a re-analysis of the deposited data

Results flagged for a closer look

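Only the named genes were looked at here, out of the 17 probe sets (0.0751%) that passed. For 8 of the named genes the excess of kidney over the mean of the other 4 tissues differed between ERRγ null and wild-type arrays. This was judged by the interaction term of 1 limma fit of all 30 arrays. For Klk1 the difference was -4.90 ± 0.80 (adjusted p = 0.0112), with 4.38, 2.07 and 0.71 in null kidney, against 7.95, 7.16 and 7.32 in wild-type kidney. For Car2 it was -1.10 ± 0.21 (adjusted p = 0.0368), with 8.65, 8.70 and 8.78 in null kidney, against 10.07, 9.97 and 9.92 in wild-type kidney. For Ptger3, a prostaglandin E receptor gene, it was -1.11 ± 0.22 (adjusted p = 0.0483), with 5.33, 6.26 and 5.64 in null kidney, against 6.71, 6.88 and 6.77 in wild-type kidney. In these 3 genes the null kidney arrays lay below all the wild-type ones.

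For Sprr2f the difference was 2.28 ± 0.41 (adjusted p = 0.0282), with 9.11, 8.80 and 7.51 in null kidney, against 6.27, 6.52 and 5.71 in wild-type kidney. Serpinb1a (-3.04 ± 0.55, adjusted p = 0.0284) and Stx17 (-2.31 ± 0.45, adjusted p = 0.0368) were below the level in every kidney array of both genotypes. For Inhba (2.15 ± 0.41, adjusted p = 0.0368) the other tissues averaged 4.45 in null and 5.86 in wild-type arrays, and the kidney was below the level in both. For Atp4a (1.10 ± 0.20, adjusted p = 0.0325) the other tissues averaged 5.52 in null and 6.86 in wild-type arrays, while the kidney arrays read 5.36, 5.72 and 5.40 in null and 5.57, 5.79 and 5.84 in wild type. The causes were not tested.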

How the results depend on the processing

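No result changed direction under the alternatives run. With the filter at the level, 154 probe sets were higher than in each tissue, 1277 were lower than in brain and 125 list members were called. With the floor at the level, 731 were higher than the 4-tissue mean and 12 lower than in each. With no minimum size the counts higher and lower were 3954 and 2080 against the 4-tissue mean, 4509 and 3897 against brain, 2667 and 2102 against stomach, 5554 and 3136 against liver, 3307 and 2743 against salivary tissue, and 585 and 110 against each. At 4-fold they were 353 and 149 against the 4-tissue mean, 929 and 879 against brain, 301 and 504 against stomach, 939 and 806 against liver, 505 and 343 against salivary tissue, and 126 and 3 against each, with 118 list members called. Without brain, stomach, liver or salivary tissue, 99, 34, 79 or 47 were lower than in each of the others, and without stomach 420 were higher, 275 of them shared. With the other tissues pooled as 1 group, 333 were higher and 43 lower, since differences among those tissues then count as error. Leaving out 1 array gave 259 to 282 higher and 16 to 25 lower than in each tissue, and leaving out 1 null kidney array gave 181 to 189 in place of 199 called higher in both genotypes. With the replicate number as a replicate block, 279 were higher and 20 lower than in each, and every count stayed within 1.5 times. Same-numbered arrays correlated at -0.073 to 0.192, with 10 of 30 pairs above 0.1 against 3 of 60 pairs of other number. Of 15 arrays 13 correlated best with their own number, and Xist was low in array 3 of every wild-type tissue. It was also low in array 1 of every null tissue (6.34 to 7.22). These are hints from the data that numbers may be shared by animals, but the labels do not state it and not every pair passed 0.1, so the block stayed an alternative. The main p-values treat the 15 arrays as independent. Over all alternatives, the 368 named probe sets kept their call 9851 times, gained one 139 times and lost one 193 times. Counts per list moved by more than 1.5 times, or to or from 0, in 117 cases and did not in 2403. With all probe sets of each gene, 11 list medians moved by more than their SD over the kidney arrays and 34 did not. The thick ascending limb median was then 1.82 in place of 1.32, and the principal cell median 1.78 in place of 2.19. Signals below 5.36 give folds only as bounds.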

Other observations

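A set of cholesterol synthesis genes, listed after the values were seen, was lower in kidney than the mean of the other 4 tissues for 5 of 19 measured members and higher for 0, with a median difference of -0.54, against 0.01 over all probe sets. The 5 were Sc5d (5.90, 6.09 and 5.91 in kidney and 6.42 to 9.03 elsewhere), Fdft1, Idi1 (8.18, 8.39 and 8.27 in kidney and 8.77 to 9.86 elsewhere), Lss (7.09, 7.21 and 7.07 in kidney and 7.82 to 8.93 elsewhere) and Fdps. The kidney arrays of Sc5d, Idi1 and Lss lay below all 12 others. The call of Fdps (difference -1.02 ± 0.14) was lost without kidney array 1, stomach array 3 or salivary array 2. Hmgcs1, the synthase gene at the entry of the pathway, was not called, at 11.35, 11.34 and 11.41 in kidney and 10.93 to 11.99 elsewhere.

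Genes of amino acid synthesis and the deprivation response were also listed after the values were seen. Of 21 measured, 2 were higher and 3 lower than the 4-tissue mean, beside 4.93% and 2.68% of all probe sets. Their median difference was -0.28, and against salivary tissue 0 were higher and 5 lower. Asns was lower than in each tissue, while the regulator gene Atf4 was not called (8.92, 8.74 and 8.92 in kidney and 8.39 to 9.75 elsewhere). The serine synthesis gene Phgdh was higher than the 4-tissue mean (9.99, 9.98 and 9.90 in kidney), a call lost without liver array 1. Its salivary arrays read 9.89, 9.78 and 9.67. Of 7 histamine genes, 2 were higher than in each tissue. Hdc, which makes histamine, read 9.69, 9.90 and 9.52 in kidney at its brighter probe set and 2.31 to 4.56 elsewhere, at least 20.3-fold. Aoc1, which degrades histamine and other diamines, read 7.44, 7.45 and 7.11 in kidney and 5.45 to 6.30 elsewhere.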
